A study of Mus musculus with 9 samples.

Results

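The mitosis and spindle genes are 35 of 35934 annotated genes measured in whole mouse uterus. They were chosen by name as genes that act in mitotic entry, spindle assembly, chromosome segregation and cell division. Earlier results of these data were known when they and the other gene lists were chosen. Counts set beside all genes are therefore descriptions only. The uteri came from immature C57BL/6 females, given as 25 days old in the sample labels and as 21 days old in the design text, that had received 1 mg of progesterone and 10 mg/kg per day of estradiol over 3 days, in all groups alike. In 3 libraries the horns had received the pooled medium of 18 arrested human embryos ("arrested"), in 3 the pooled medium of 9 developmentally competent human embryos ("competent"), and in 3 the same volume, 50 µl, of unconditioned embryo culture medium ("control"). Each conditioned medium was pooled over embryos, and the labels do not say that the libraries of a group are separate animals, so every p-value measures the spread between these libraries, which may be technical. Markers of uterine tissue were present: the epithelial keratin Krt8 stood at 369 to 749 FPKM in arrested, 580 to 661 FPKM in competent and 503 to 650 FPKM in control libraries and the smooth muscle actin Acta2 at 234 to 704, 437 to 1013 and 539.5 to 628.5 FPKM in the same order of groups.

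Cells enter mitosis when the kinase Cdk1 is activated by A-type and B-type cyclins; Plk1 and the aurora kinases then act on centrosomes, spindle and chromosomes. Kinetochores attach chromosomes to microtubules, and a checkpoint holds back the anaphase-promoting complex until all are attached. Most of these genes are transcribed periodically, with a peak in G2 and M phase, so their transcripts in a tissue are commonly read as a sign of dividing cells. Estrogen drives waves of division in the rodent uterus, and progesterone shifts them between epithelium and stroma.

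Promoters of such genes are known for a short element, the cell cycle genes homology region (CHR), read by the MuvB-containing complexes, and for CCAAT boxes, bound by NF-Y. The promoters shown here are the members in which both sets of letters lie wholly within 100 bases before the transcription start, with Birc5 as a contrast that has neither in its window. Sequences are from RefSeq on build GRCm38.p6, a later build than the mm9 of the expression values, and are written 5′ to 3′ on the gene's strand, ending 1 base before the start; capitals mark TTTGAA (the CHR letters) or CCAAT on either strand, so TTCAAA and ATTGG are the same letters on the other strand. Their positions are chr10:69352913-69353012 (minus strand, Cdk1), chr11:99024190-99024289 (minus, Top2a), chr4:118437344-118437443 (minus, Cdc20), chr7:80294376-80294475 (plus, Prc1), chr15:102296193-102296292 (plus, Espl1), chr19:37376282-37376381 (plus, Kif11) and chr11:117849137-117849236 (plus, Birc5).
Cdk1: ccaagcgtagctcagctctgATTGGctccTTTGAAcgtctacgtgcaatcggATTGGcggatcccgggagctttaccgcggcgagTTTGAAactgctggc
Top2a: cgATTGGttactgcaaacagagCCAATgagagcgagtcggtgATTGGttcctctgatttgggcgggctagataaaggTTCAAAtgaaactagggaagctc
Cdc20: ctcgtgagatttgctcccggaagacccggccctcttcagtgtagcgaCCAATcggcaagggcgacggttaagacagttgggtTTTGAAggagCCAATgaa
Prc1: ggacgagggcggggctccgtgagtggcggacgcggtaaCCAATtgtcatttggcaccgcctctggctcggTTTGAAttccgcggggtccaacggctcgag
Espl1: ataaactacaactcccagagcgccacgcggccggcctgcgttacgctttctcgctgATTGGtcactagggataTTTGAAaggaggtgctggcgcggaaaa
Kif11: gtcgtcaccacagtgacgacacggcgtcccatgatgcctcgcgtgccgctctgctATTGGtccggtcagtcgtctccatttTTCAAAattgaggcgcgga
Birc5: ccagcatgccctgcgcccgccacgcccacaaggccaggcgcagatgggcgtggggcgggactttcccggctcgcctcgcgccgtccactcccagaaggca
RefSeq windows of 300 bases, 250 before to 50 after a start, were at hand for 30 of the 35 members, as 32 windows because Prc1 and Ect2 have a pair of overlapping ones. TTTGAA was found on either strand in 24 of the 32 windows, 75% against 17.9% of all 32851 windows of the same length. Close to the start, from 60 bases before to 40 after it, 22 member windows (68.8%) held TTTGAA, against 5.32% of all windows. CCAAT was found in 24 windows as well, 75% against 37.4% of all windows, and 21 windows (65.6%) held both sets of letters, against 6.95%. The E2F letters TTTGGCGC, TTTCCCGC, TTTCGCGC or TTTGCCGC, also searched on both strands, were in 1 member window (3.13%), that of Cdk1, against 2.26% of all windows. None of the motifs contains another. A match describes letters in a window and is not a bound site.

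The values of a gene are FPKM, fragments per kilobase of transcript scaled to the number of mapped fragments, as the authors deposited them and summed here over the annotated transcripts of the gene. FPKM divide by length, but short transcripts can raise such a sum, so ranks between genes depend on how the value is made. By mean over the 9 libraries the members ran from 45.7 FPKM for Cdk1 to 0.763 FPKM for Espl1. Most of the Cdk1 sum came from its transcripts of 475 and 378 bases, while its transcript of 1253 bases stood at 3.00 to 19.7 FPKM. With transcripts weighted by their length over the gene's exons (exon coverage), Cdk1 stood at 3.24 to 15.8 and Mad2l1 higher, at 5.49 to 28.1. Of the 35 members, 34 had a mean of at least 1 FPKM and were tested, Espl1 being the exception, and 13333 genes were tested in all. Depth in reads is not known. The deposited coverage over annotated transcripts came to 1101, 1491 and 1366 Mb of sequence in control libraries. It came to 2084, 1764 and 1471 Mb in competent and 1670, 1393 and 1536 Mb in arrested libraries. The part of depth in the values of the members was not tested. For Plk1, which has 1 annotated transcript, the deposited confidence intervals are as wide as the counting of 16 fragments (arrested library 1) to 405 fragments (competent library 3) would give, and for Espl1 as wide as 9 to 172 fragments.

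The medium of competent embryos went with higher values of the members than either other group. All 34 tested members were above controls in mean log2(FPKM + 1), and for 30 of them every competent library stood above every control library, as for 6.72% of all genes tested. All 34 were lower in the arrested than in the competent group, and for 17 of them every arrested library stood below every competent library, as for 8.75% of all genes tested. Between arrested and control groups the members went both ways, 18 higher and 16 lower, and none separated the libraries. No member passed an adjusted p of 0.05 in any of the 3 comparisons by limma, so these are differences in the level of single libraries that the test across all genes does not call.

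**Figure D1:**
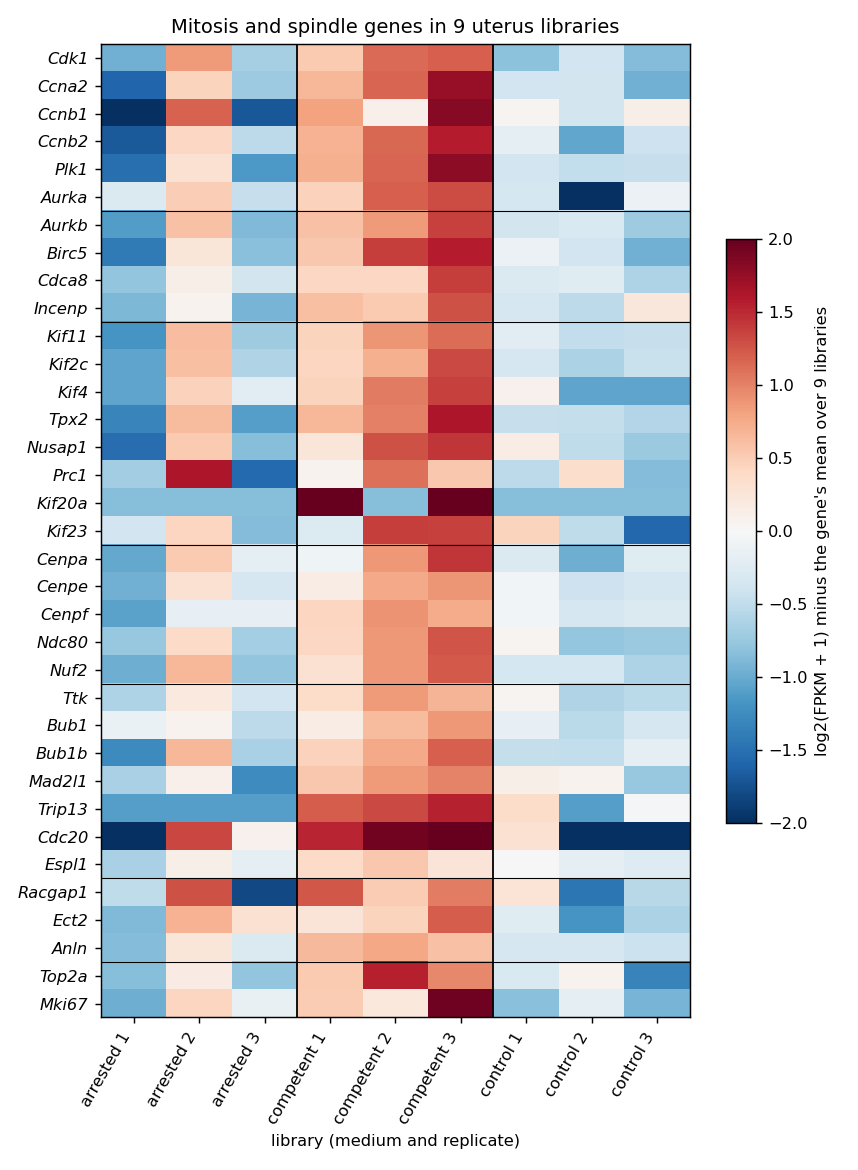
Expression of the 35 members in each of the 9 libraries, as log2(FPKM + 1) minus the mean of that gene over the libraries; rows are genes ordered by role with lines between roles, columns are libraries, and colours are cut at 2 in both directions. The competent columns are mostly red, arrested library 2 stands apart from arrested libraries 1 and 3, and competent library 3 is the darkest red in most rows.

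Among the kinases and cyclins of mitotic entry, Cdk1 stood at 19.0, 69.3 and 23.8 FPKM in arrested, 55.0, 85.3 and 88.6 FPKM in competent and 21.2, 29.1 and 20.3 FPKM in control libraries. Its competent values all lay above its control values, while arrested library 2 lay within the competent range. The log2 difference of FPKM + 1 was 1.64 ± 0.45 (SE) for competent minus control and -1.21 ± 0.45 for arrested minus competent. Plk1 (chr7:129302951-129313389 on mm9, plus strand), the polo-like kinase of centrosome maturation and cytokinesis, stood at 0.521, 4.35 and 0.952 FPKM in arrested, 6.05, 8.67 and 13.9 FPKM in competent and 2.30, 2.07 and 2.12 FPKM in control libraries. All competent libraries were above all 6 others, controls were close to each other, and the arrested libraries lay on both sides of them. Plk1 averaged 1.94 ± 2.10 FPKM in arrested, 9.55 ± 4.01 FPKM in competent and 2.16 ± 0.117 FPKM in control libraries (SD, n = 3 each). Its log2 difference was -2.0 ± 0.48 for arrested minus competent (limma, adjusted p = 0.26) and 1.67 ± 0.48 for competent minus control (limma, adjusted p = 0.866).

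Cyclin B1, Ccnb1, the partner of Cdk1 at mitotic entry, stood at 1.45, 21.3 and 2.04 FPKM in arrested, 16.3, 9.62 and 33.8 FPKM in competent and 9.25, 6.68 and 9.75 FPKM in control libraries. Arrested library 2 was above 2 of the 3 competent libraries, and competent library 2 was below control library 3, so no pair of groups separated. Of its 6 annotated transcripts, 2 had a value above 0 in any library. The transcript of 461 bases was listed at 0 in arrested libraries 1 and 3 and in competent library 2, and at 13.2 FPKM in arrested library 2, 11.3 and 21.1 FPKM in competent libraries 1 and 3 and 4.47 to 7 FPKM in controls. The transcript of 2407 bases stood at 1.45, 8.09 and 2.04 FPKM in arrested, 5.01, 9.62 and 12.7 FPKM in competent and 3.40, 2.21 and 2.75 FPKM in control libraries. On the longer transcript every competent library was above every control. The related cyclin Ccnb2 stood at 1.90, 11.3 and 5.46 FPKM in arrested, 13.9, 19.6 and 26.5 FPKM in competent and 7.16, 3.51 and 5.98 FPKM in control libraries. Ccna2, the cyclin A of S and G2 phase, stood at 1.6 to 9.62 FPKM in arrested, 11.4 to 24.9 FPKM in competent and 3.00 to 5.04 FPKM in control libraries. For both genes the competent libraries were above all others on summed annotated transcripts. From exon coverage, arrested library 2 was above competent library 1 for Ccna2, at 8.12 against 7.86. Aurka, the aurora kinase of the spindle poles, reached 5.60 FPKM in arrested and 10.6 FPKM in competent libraries and was listed at 0 in control library 2. Among the 6 genes of this role, 5 had competent libraries all above control libraries, against 6.72% of all genes tested. Arrested libraries were all below competent ones in 3, against 8.75%.

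The chromosomal passenger complex corrects faulty attachments of chromosomes to the spindle. On annotated transcripts all 4 of its members had competent libraries above all control and all arrested libraries. Of all genes tested, 6.72% had competent libraries all above controls and 8.75% had arrested libraries all below competent ones. Birc5 (survivin, chr11:117710565-117717069 on mm9, plus strand), which places the complex on chromatin, stood at 3.34, 12.6 and 5.47 FPKM in arrested, 15.7, 28.9 and 33.2 FPKM in competent and 9.61, 7.80 and 4.90 FPKM in control libraries. Every competent library was above every other library. Its log2 difference was -1.83 ± 0.46 for arrested minus competent (limma, adjusted p = 0.26) and 1.65 ± 0.46 for competent minus control (limma, adjusted p = 0.866). Aurkb, the kinase of the complex, stood at 2.89, 11.7 and 3.59 FPKM in arrested, 11.8, 14.3 and 20.9 FPKM in competent and 5.58, 5.86 and 4.17 FPKM in control libraries. The groups separated, with arrested library 2 just below competent library 1. Cdca8 (borealin) stood at 3.24 to 6.87 FPKM in arrested, 8.67 to 17.9 FPKM in competent and 3.74 to 5.18 FPKM in control libraries. Incenp, the scaffold of the complex, stood at 2.36 to 5.73 FPKM in arrested, 8.21 to 14.4 FPKM in competent and 3.44 to 6.52 FPKM in control libraries. With transcripts assembled in single libraries added, Incenp stood at 8.76, 16.4 and 14.4 FPKM in competent and 9.37, 18.8 and 6.52 FPKM in control libraries, which then overlapped, and its competent minus control difference came to 0.25 in place of 1.01 on the log2 scale.

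Among motors and microtubule proteins of the spindle, Tpx2, which activates Aurka on spindle microtubules, stood at 1.11, 7.18 and 1.44 FPKM in arrested, 7.36, 9.51 and 15.2 FPKM in competent and 2.83, 2.77 and 2.5 FPKM in control libraries. On annotated transcripts the groups separated, though arrested library 2 was just below competent library 1. With assembled transcripts added, arrested library 2 was above competent library 1 for Tpx2, at 8.01 against 7.36 FPKM. Nusap1, a protein that bundles spindle microtubules, stood at 0.961, 7.13 and 2.15 FPKM in arrested, 5.72, 12.7 and 14.3 FPKM in competent and 5.26, 2.98 and 2.37 FPKM in control libraries. Competent libraries were above controls, with arrested library 2 within the competent range. Kif11, the kinesin that pushes spindle poles apart, stood at 0.690 to 4.86 FPKM in arrested, 4.17 to 7.30 FPKM in competent and 1.72 to 2.26 FPKM in control libraries. Kif2c, a microtubule depolymerase, stood at 0.698 to 4.36 FPKM in arrested, 3.77 to 7.89 FPKM in competent and 1.30 to 1.81 FPKM in control libraries. In both, the overlap with the competent group came from arrested library 2. The chromokinesin Kif4 was listed at 0 in arrested library 1 and control libraries 2 and 3 and at 1.83 to 4.40 FPKM in competent libraries. Kif20a, a kinesin of the central spindle, was listed at 0 in all arrested and all control libraries and at 9.49, 0 and 18.7 FPKM in competent libraries. With assembled transcripts added, Kif20a came to 9.23 FPKM in arrested library 2 and 16.2 FPKM in competent library 2, and the other values did not move, so its listed zeros are not read as absence. Prc1, which crosslinks microtubules of the central spindle, stood at 2.14, 14.6 and 0.732 FPKM in arrested, 4.34, 9.92 and 6.39 FPKM in competent and 2.54, 5.49 and 1.79 FPKM in control libraries. With assembled transcripts added, Prc1 stood at 2.14, 14.6 and 5.96 FPKM in arrested, 9.18, 14 and 22 FPKM in competent and 7.79, 5.49 and 4.67 FPKM in control libraries, so arrested library 2 was the highest of all only on annotated transcripts and competent libraries then stood above controls. Kif23, the kinesin subunit of centralspindlin, stood at 1.45, 6.70 and 6.62 FPKM in competent libraries and overlapped both other groups. With assembled transcripts added, Kif23 stood at 7.52, 9.64 and 11.3 FPKM in competent libraries, above the arrested libraries at up to 6.64 FPKM and the controls at up to 3.63 FPKM. On annotated transcripts, 5 of the 8 genes of this role had competent libraries all above controls, against 6.72% of all genes tested. Arrested libraries were all below competent ones in 1, Tpx2, against 8.75%.

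**Figure D2:**
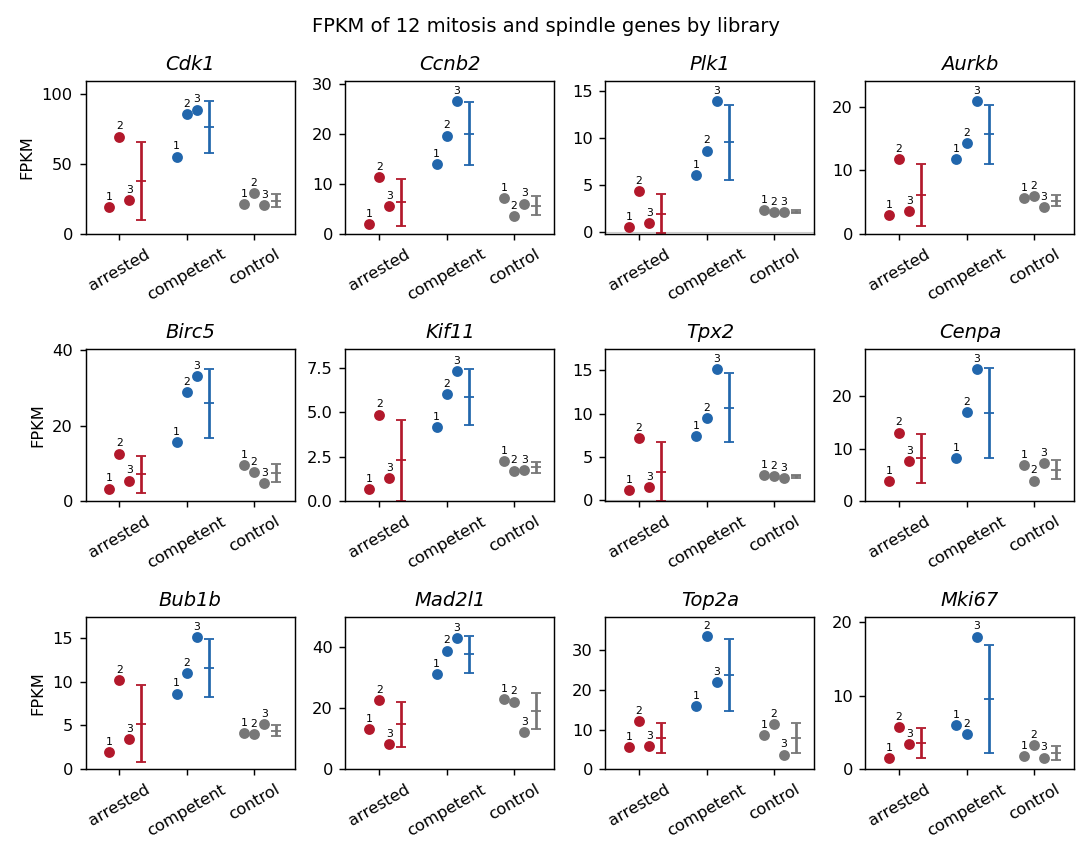
FPKM of 12 of the members in each library, 1 panel per gene; points are libraries with their replicate number, and bars are the group mean ± SD (n = 3). Arrested library 2 is the highest arrested library in all 12 panels, and the competent libraries are above the controls in all 12. The panels leave out Ccnb1, Prc1, Kif20a and Kif23, the tested members whose competent libraries overlap the controls.

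At the kinetochore, Cenpa, the histone H3 variant that marks centromeres, stood at 3.80, 13.1 and 7.60 FPKM in arrested, 8.20, 16.9 and 25.2 FPKM in competent and 6.96, 3.95 and 7.22 FPKM in control libraries. Competent libraries were above controls, and arrested library 2 was above competent library 1. Neither held with assembled transcripts added, where competent library 1 came to 14.7 FPKM, above arrested library 2 at 13.1 FPKM and below control library 1 at 16.2 FPKM. Cenpf, a large protein of the outer kinetochore, stood at 0.226, 1.29 and 1.29 FPKM in arrested, 2.48, 3.80 and 3.32 FPKM in competent and 1.47, 1.03 and 1.11 FPKM in control libraries. On annotated transcripts competent libraries were above the other 6, and arrested libraries 2 and 3 were alike. Its log2 difference was -1.16 ± 0.32 for arrested minus competent (limma, adjusted p = 0.316). With assembled transcripts added, arrested library 2 came to 3.47 FPKM for Cenpf, above competent library 1 at 2.97 FPKM. Ndc80 and Nuf2, which form the microtubule-binding arm of the kinetochore together, stood at 4.81 to 9.44 and 4.19 to 8.85 FPKM in competent libraries; their arrested libraries ran up to 4.68 and 5.64 FPKM and their control libraries up to 3.54 and 2.30 FPKM. Cenpe, a kinesin of the kinetochore, had the smallest difference of the tested members for competent minus control, 0.86 ± 0.38 on the log2 scale. On annotated transcripts all 5 genes of this role had competent libraries all above controls, against 6.72% of all genes tested. Arrested libraries were all below competent ones in 2, against 8.75%.

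Among genes of the spindle checkpoint and of anaphase, Mad2l1, the checkpoint protein that holds Cdc20, stood at 13.1, 22.7 and 8.27 FPKM in arrested, 31.2, 38.9 and 43.0 FPKM in competent and 22.9, 22.2 and 12.1 FPKM in control libraries. Its competent libraries stood apart from the other 6, and its log2 difference was -1.39 ± 0.37 for arrested minus competent (limma, adjusted p = 0.286). Trip13, the ATPase that remodels Mad2, was listed at 0 in all 3 arrested libraries, at 3.99, 4.39 and 5.22 FPKM in competent libraries and at 1.78, 0 and 1.1 FPKM in control libraries. It had the smallest adjusted p of the members in both comparisons with the competent group, 0.115 for arrested minus competent and 0.824 for competent minus control (limma); its listed zeros may be failed estimates. Cdc20, the activator of the anaphase-promoting complex, was listed at 0, 13.2 and 4.97 FPKM in arrested, 15.2, 20.5 and 27.5 FPKM in competent and 5.95, 0 and 0 FPKM in control libraries. Its competent values were the highest, and 3 of the other 6 were listed at 0. The checkpoint kinases Ttk and Bub1 stood at 1.75 to 2.86 and 1.73 to 3.49 FPKM in competent libraries, on annotated transcripts above every arrested and every control library. With assembled transcripts added, arrested library 2 came to 3.33 FPKM for Bub1, above competent library 1 at 2.92 FPKM. Bub1b, the checkpoint protein BubR1, stood at 8.63 to 15.1 FPKM in competent and 3.97 to 5.12 FPKM in control libraries, with arrested library 2 at 10.2 FPKM. Espl1, the separase that cuts cohesin, stood at 0.0909, 0.850 and 0.510 FPKM in arrested, 1.23, 1.49 and 1.06 FPKM in competent and 0.712, 0.498 and 0.431 FPKM in control libraries, and had no test. Of the 6 tested genes of this role, all had competent libraries all above controls, against 6.72% of all genes tested. Arrested libraries were all below competent ones in 5, against 8.75%.

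In cytokinesis, Racgap1, the GTPase-activating subunit of centralspindlin, stood at 3.71, 15.2 and 0.909 FPKM in arrested, 14.8, 8.55 and 12.6 FPKM in competent and 7.09, 1.47 and 3.57 FPKM in control libraries. The arrested libraries spanned the range of both other groups. Anln, the scaffold anillin of the contractile ring, stood at 1.02, 3.36 and 2.01 FPKM in arrested, 4.74, 5.32 and 4.54 FPKM in competent and 1.90, 1.92 and 1.72 FPKM in control libraries. On annotated transcripts its competent libraries were above the other 6 and close to one another. Its log2 difference there was 1.04 ± 0.29 for competent minus control (limma, adjusted p = 0.866). With assembled transcripts added, Anln stood at 4.74, 5.32 and 9.68 FPKM in competent libraries and at 5.62 FPKM in arrested library 2. Ect2, the exchange factor that activates RhoA, had the smallest difference for arrested minus competent of the tested members on the log2 scale, -0.60 ± 0.47. By the ratio of mean FPKM Ect2 stood at 0.647 and Prc1, less changed, at 0.847. Of the genes that act on chromosomes, Top2a, the topoisomerase that untangles DNA, stood at 5.53, 12.2 and 5.84 FPKM in arrested, 15.9, 33.6 and 22 FPKM in competent and 8.59, 11.4 and 3.69 FPKM in control libraries. On annotated transcripts the competent libraries were again above the other 6. With assembled transcripts added, arrested library 2 came to 16.8 FPKM for Top2a, above competent library 1 at 15.9 FPKM. Mki67, the surface protein of mitotic chromosomes used to stain dividing cells, stood at 1.5, 5.68 and 3.45 FPKM in arrested, 5.98, 4.73 and 18.0 FPKM in competent and 1.75, 3.3 and 1.58 FPKM in control libraries. Arrested library 2 lay between competent libraries 1 and 2. With assembled transcripts added, Mki67 stood at 10.6 FPKM in arrested library 2 and at 8.31, 17.8 and 18.0 FPKM in competent libraries, so that competent library 3 stood far above all others only on annotated transcripts.

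Which members separated the groups depended on how a gene value was made, a comparison drawn up after the values were seen. With assembled transcripts added, 31 of the 34 tested members had competent libraries all above control libraries, against 6.97% of 14254 genes, and 16 had arrested libraries all below competent ones, against 9.45%. Incenp and Cenpa then lost the first separation and Prc1, Kif20a and Kif23 gained it. Tpx2, Cenpf, Bub1, Anln and Top2a lost the second, and Nusap1, Kif20a, Kif23 and Cenpa gained it. From exon coverage the counts were 31 and 17, against 6.99% and 9.54% of 12751 genes. Ccnb1 then gained the first separation, Ccna2 lost the second and Racgap1 gained it. From each gene's most abundant transcript they were 27 and 14, against 6.82% and 8.90% of 12905 genes. In that last case Incenp, Cenpa and Ttk lost the first separation, and Ccna2, Aurkb, Incenp, Tpx2 and Ttk the second, which Racgap1 and Ect2 gained.

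For competent minus control, the log2 differences of the 34 tested members ran from 0.86 to 3.49, with a median of 1.34 against -0.01 over all 13333 genes tested. Over the 28 tested members above 0 in every library, they ran from 0.86 to 1.76 with a median of 1.27. Members were higher in the competent group in 34 of 34 cases, against 48.1% of all genes tested (51.9% were lower). The difference was above 1 on the log2 scale in 27 members, against 4.31% of all genes, and under -1 in none, against 4.04%. Every competent library was above every control library in 30 members, against 6.72% of all genes, and below in none, against 8.13%. By limma, 29 members had an unadjusted p under 0.05 in this direction, against 2.59% of all genes, and none in the other, also against 2.59%. None passed the adjusted p of 0.05, which 6 genes (0.045%) passed, and the adjusted p of members ran from 0.824 to 0.955 (limma). The count of 29 came to 19 without control library 2 and 17 without competent library 3, where the share of all genes is not given. In bulk tissue, fewer cells of a type and less RNA per cell cannot be told apart.

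For arrested minus competent, the log2 differences of the members ran from -2.56 to -0.60, with a median of -1.22 against -0.01 over all genes tested, and of -1.22 over the 28 never-zero members too. All 34 were lower, against 50.9% of all genes (48.7% were higher). The difference was under -1 on the log2 scale in 27 members, against 5.24% of all genes, and above 1 in none, against 4.73%. Every arrested library was below every competent library in 17 members, against 8.75% of all genes, and above in none, against 7.73%. By limma, 25 members had an unadjusted p under 0.05 in this direction, against 5.61% of all genes, and none in the other, against 5.31%. None passed the adjusted p of 0.05, which 18 genes (0.135%) passed, and the adjusted p of members ran from 0.115 to 0.766 (limma). With 1 library dropped, the count of 25 came to 13 without competent library 3 or arrested library 3 and to 14 without arrested library 1. It came to 16 without competent library 2 and to 30 without arrested library 2. For these counts the share of all genes is not given, so they cannot be set against a change over all genes. Without arrested library 2, 2 members passed the adjusted p by limma, Plk1 at -2.55 and Tpx2 at -2.31 on the log2 scale, each with an adjusted p of 0.0477; over all the alternatives tried their adjusted p ran up to 0.617 and 0.693. This comparison and that of competent with control use the same 3 competent libraries, so they are not independent.

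For arrested minus control, the log2 differences ran from -0.85 to 1.20, with a median of 0.03 against -0.02 over all genes tested. Over the 28 never-zero members they ran from -0.78 to 0.72. Members were higher in 18 cases and lower in 16, against 46.9% and 53.1% of all genes, 1 (Cdc20) by more than 1 on the log2 scale, against 4.19%, and none under -1, against 4.31%. By limma, no member had an unadjusted p under 0.05, against 2.08% of all genes higher and 3.19% lower, none passed the adjusted p, which 7 genes (0.0525%) passed, and the adjusted p of members was at least 0.904. No member had arrested libraries all above or all below the controls, against 3.49% and 5.36% of all genes. The middle value rests on libraries that differ: without arrested library 2, 6 members were higher and 28 lower, with a median of -0.38, and without arrested library 1, 29 were higher and 5 lower, with a median of 0.31. A p that misses the threshold does not show that the groups are alike.

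**Figure D3:**
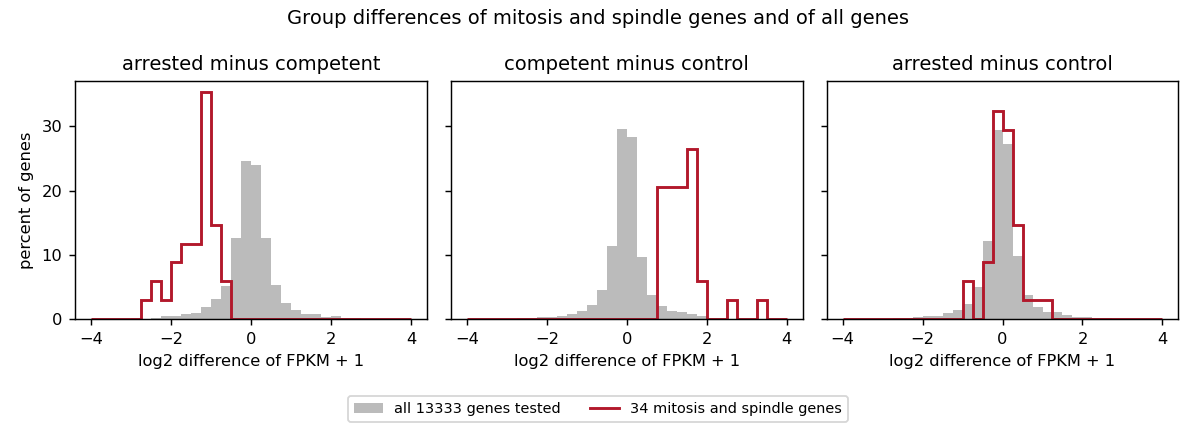
Distribution of log2 differences of FPKM + 1 in the 3 comparisons, as the percent of genes per bin; filled grey is all 13333 genes tested and the red line the 34 tested members. The members lie below 0 for arrested minus competent, above 0 for competent minus control and around 0 for arrested minus control.

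Within groups, the members followed the library. Arrested library 2 was the highest arrested library for 33 of the 35 members, against 38.2% of the genes tested, and its value was 3.08 times the mean of arrested libraries 1 and 3 in the median over the 31 members above 0 in both of those libraries, with a range of 1.6 to 12.2. It stood above all controls for 29 members, against 29.7% of genes tested, and below all competent libraries for 18, against 25.2%. Arrested library 1 was the lowest of the 9 for 21 members, against 13.9%, and stood below all controls for 22, against 29.0%. Arrested library 3 stood below all controls for 12 members, against 35.6% of genes tested, and above all of them for 4, against 22.5%. Competent library 3 was the highest of the 9 libraries for 27 members, against 8.81% of genes tested, and exceeded competent library 1 in 32 of 35, by a median of 1.96 times. The median deviation of the members from their own means on the log2 scale was -0.98, 0.44 and -0.69 in arrested, 0.48, 0.87 and 1.32 in competent and -0.27, -0.49 and -0.60 in control libraries.

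Smooth muscle markers went partly the same way. Of the 12 genes, 11 were tested and 10 of those were lower in the arrested than in the competent group, with a median log2 difference of -0.91 and 2 with an unadjusted p under 0.05 by limma; 10 were higher in the competent than in the control group, with a median of 0.44 and none with such a p. Their median deviation was -1.09, 0.50 and -0.32 in arrested, -0.10, 0.80 and 0.48 in competent and -0.12, 0.15 and 0.07 in control libraries. Their summed level was 1105 to 2812 FPKM in arrested, 1854 to 3731 FPKM in competent and 2051 to 2240 FPKM in control libraries; Mylk was listed at 0 in arrested library 1, competent libraries 2 and 3 and control library 1, and Myocd in competent library 2. Competent library 1 had members at 0.48 with these markers at -0.10. Of 12 epithelium markers, 11 were tested. In the arrested group 8 were lower than in the competent group, with a median of -0.16. An unadjusted p under 0.05 by limma was found in 2 lower and none higher, against 5.61% and 5.31% of all genes. The epithelium markers summed to 2362 to 3506 FPKM in arrested, 2830 to 3268 FPKM in competent and 2606 to 3350 FPKM in control libraries. Foxa2 was listed at 0 in competent library 2. All 12 stroma markers were tested. In the arrested group 7 were higher and 5 lower than in the competent group, with a median of 0.18. An unadjusted p under 0.05 by limma was found in 2 higher and 2 lower. In the competent group 8 were lower than in the control group, with a median of -0.33. Such a p was found in 2 lower and 1 higher, against 2.59% of all genes in each direction. Their median deviation was -0.42, 0.69 and -0.04 in arrested, -0.15, -0.32 and 0.14 in competent and 0.09, -0.08 and 0.31 in control libraries, so that arrested library 2 was the highest here too. Their sum was 1632 to 3101 FPKM in arrested, 1682 to 2490.2 FPKM in competent and 1939 to 2430.2 FPKM in control libraries; Col3a1 was listed at 0 in control library 3 and Pdgfrb in arrested library 3 and competent library 2. Summed adipocyte markers stood at 2.18, 1369 and 148 FPKM in arrested, 2.32, 173 and 61.7 FPKM in competent and 114, 54.3 and 5.5 FPKM in control libraries, so that arrested library 2 held the most. The part of these markers in the values of the members was not tested.

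**Figure D4:**
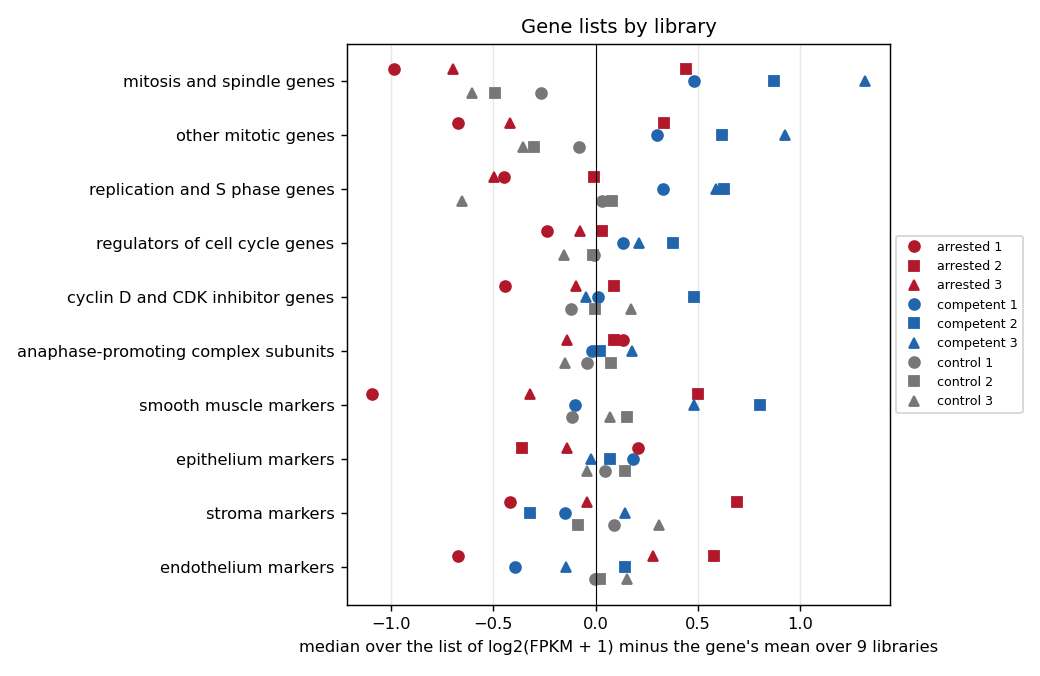
Median over each gene list of log2(FPKM + 1) minus the gene's mean over the 9 libraries; rows are lists, colours are groups and symbols are replicates 1, 2 and 3. In the rows of the members, the other mitotic genes and the replication genes the 3 competent libraries are to the right of the controls, and in the smooth muscle row arrested library 1 is far to the left.

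The other lists were read over the same libraries. Of 66 further mitotic genes, 63 were annotated and 53 tested. In the arrested group 47 were lower than in the competent group, with a median log2 difference of -0.87. An unadjusted p under 0.05 by limma was found in 21 lower and 1 higher, against 5.61% and 5.31% of all genes. In the competent group 46 were higher than in the control group, with a median of 0.85. Such a p was found in 23 higher and 1 lower, against 2.59% of all genes in each direction. None passed the adjusted p in any comparison. The motor Kifc1 stood at 0.831, 2.45 and 2.22 FPKM in arrested, 4.68, 6.08 and 9.17 FPKM in competent and 2.69, 1.86 and 1.74 FPKM in control libraries, and its arrested minus competent difference was -1.44 ± 0.33 (limma, adjusted p = 0.26). The kinetochore genes Cenph and Cenpm differed by -1.12 ± 0.23 and -1.16 ± 0.31 in the same comparison, with competent libraries above all others. Of 40 replication and S phase genes, 36 were annotated and 34 tested. In the arrested group 33 were lower than in the competent group, with a median of -0.89. An unadjusted p under 0.05 by limma was found in 18 lower and none higher, against 5.61% and 5.31% of all genes. In the competent group 32 were higher than in the control group, with a median of 0.69. Such a p was found in 13 higher and none lower, against 2.59% of all genes in each direction. Rrm2, the ribonucleotide reductase subunit, stood at 1.54, 4.85 and 3.68 FPKM in arrested, 8.38, 13.9 and 11.3 FPKM in competent and 3.86, 3.90 and 2.62 FPKM in control libraries, and Uhrf1, a factor of DNA methylation upkeep, at 2.61 to 6.89, 12.8 to 15.6 and 3.34 to 7.25 FPKM in the same order of groups. Cyclin E2, Ccne2, was listed at 0 in all arrested libraries, at 2.94 to 4.29 FPKM in competent libraries and at 2.27, 2.09 and 0 FPKM in control libraries.

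Lists of regulators had medians closer to 0. For arrested minus competent, 5.61% of all genes were lower and 5.31% higher at an unadjusted p under 0.05 by limma. Of 19 transcription factors and pocket proteins that regulate cell cycle genes, 16 were tested; 13 were lower in the arrested than in the competent group, with a median of -0.28 and 2 with an unadjusted p under 0.05 by limma, and 11 were higher in the competent than in the control group, with a median of 0.26. E2f1 stood at 0.965, 2.31 and 1.68 FPKM in arrested, 2.44, 4.09 and 4.01 FPKM in competent and 2.24, 1.96 and 1.96 FPKM in control libraries, and the repressor E2f8 at 0.276 to 0.711, 1.24 to 2.96 and 0.356 to 0.779 FPKM in the same order of groups. Rbl2 was listed at 0 in 6 of the 9 libraries. Of 13 cyclin D and CDK inhibitor genes, 11 were tested; 6 were lower and 5 higher in the arrested than in the competent group, with a median of -0.22 and 1 with an unadjusted p under 0.05 by limma. That 1 was Cdkn1a, the CDK inhibitor p21, at 2.98, 4.84 and 5.75 FPKM in arrested, 14.2, 11.6 and 11.9 FPKM in competent and 7.15, 8.24 and 10.4 FPKM in control libraries, with arrested libraries below all others (log2 difference -1.32 ± 0.24 against competent; limma, adjusted p = 0.143). The D-type cyclin Ccnd3 stood at 24.6 to 36.6 FPKM in arrested, 34.5 to 48.4 FPKM in competent and 29.2 to 41.3 FPKM in control libraries. The inhibitor Cdkn2d overlapped in all groups. Of 12 subunits of the anaphase-promoting complex, all tested, 6 were lower and 6 higher in the arrested than in the competent group, with a median of -0.05 and 1 with an unadjusted p under 0.05 in each direction. Cdc23 stood at 24.3, 22.6 and 19.4 FPKM in arrested, 14.7, 17.9 and 16 FPKM in competent and 28.9, 20.0 and 24.8 FPKM in control libraries, but it overlaps Kif20a on the other strand by 2315 bases. Cdc27 and the activator Fzr1 differed by -0.36 ± 0.19 and -0.45 ± 0.18 on the log2 scale for arrested minus competent.

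The library kit is not stated to keep the strand, and 7 of the 35 members overlap an annotated gene that is not a small RNA: Ccna2, Cdca8, Kif4, Nusap1, Prc1, Kif20a and Cdc20. Reads of the overlapping part cannot be assigned, which for Cdc20 concerns 53 bases shared with Elovl1. The transcript with the most FPKM is under 1 kb long in Cdk1, Ccnb1, Aurkb and Birc5.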

How the data were processed

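RNA of 9 uterus libraries, 3 per group, was sequenced. The submitters' processing notes name the genome build mm9, the aligner Bowtie 0.12.2 and Cufflinks, whose version was not given in the sources used here. As deposited by the authors, each transcript has an FPKM value, the interval around it and a coverage signal. Each library lists 92839 annotated transcripts; 98.9% of those matched sat where GENCODE vM1 places them on NCBIM37, up to 1356 were not in that reference, and 73.4 to 74.7% were listed at 0. Gene values were summed over annotated transcripts with Python 3.11.15 and pandas 2.3.3, and 13333 genes averaging 1 FPKM or more were tested on log2(FPKM + 1), a scale that understates low genes, in R 4.3.3 with limma 3.58.1, in 1 fit of the 9 libraries with a mean trend and 3 contrasts (8.07 degrees of freedom, 2.07 of them prior). Adjusted p-values (Benjamini-Hochberg) are over all genes tested in a contrast; the script was tested on simulated data. A gene separates groups when their libraries do not overlap. Gene lists and members were chosen with earlier results of these data known. The member of highest mean and of smallest F test p in each role, and 8 further members, were given in every library, and the others where they complete a role; the 3 genes of smallest p for arrested minus competent were named in each other list. The alternatives tried numbered 18, of which 9 left out 1 library. Only differences of the competent comparisons are given gene by gene.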

Additional observations from a re-analysis of the deposited data

How the results depend on the processing

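Over all alternatives, competent minus control kept a positive median of the members and arrested minus competent a negative one. The genes passing the adjusted p for competent minus control numbered 10 with no filter on low values, 3 with listed zeros left out, 2 from exon coverage and 1 with the replicate block, against 6; for arrested minus control 3 by the top transcript alone and 1 with listed zeros left out, against 7; for arrested minus competent 11 by the top transcript alone, 11 with listed zeros left out and 4 with the replicate block, against 18. Members with an unadjusted p under 0.05 by limma, at a mean of at least 5 FPKM, where 18 members are tested, numbered 15 for competent minus control and 12 for arrested minus competent; for arrested minus control there was 1 with a pseudocount of 0.1 and 1 with no filter, against 0. The cause was not tested, except that the higher minimum tests fewer members. The share of all genes at an unadjusted p under 0.05 is not given for any alternative. Changes in these counts of members therefore cannot be set against a change over all genes.

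Leaving out 1 library gave, for competent minus control, 4 to 17 genes past the adjusted p, 0 to 1 members past it and 17 to 31 members at an unadjusted p under 0.05, with a median of 1.09 to 1.56. For arrested minus control these were 7 to 25 genes, 0 members and 0 to 2 members, with a median of -0.38 to 0.31. For arrested minus competent they were 12 to 43 genes, 0 to 2 members and 13 to 30 members, with a median of -1.73 to -0.98. Past the adjusted p by limma were Kif20a without competent library 2 (0.0223 for competent minus control and 0.0148 for arrested minus competent), Trip13 without control library 2 (0.0286) and Plk1 and Tpx2 without arrested library 2. Kif20a was listed at 0 in all arrested and control libraries and in the competent library left out. Trip13 was listed at 0 in all arrested libraries and in the control library left out. The p of both genes thus rests on listed zeros, which are not read as absence.

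Signs turned for Ccnb1 and Fzr1 for competent minus control by the top transcript alone (-0.049 and -0.064), for Cenph in that comparison with assembled transcripts added (-0.11), and for Rbl2 for arrested minus competent with them added (0.32). Deviations of same-numbered libraries correlated at -0.05 to 0.10 across genes, and those of differently numbered libraries at -0.09 to 0.08. A pairing by replicate number was thus not seen. With 3 libraries per group, these values cannot show whether libraries share a batch or animal. With the replicate block, members at an unadjusted p under 0.05 numbered 29, 0 and 21 for competent minus control, arrested minus control and arrested minus competent. Depth in reads is unknown, so no upper limit can be given for a member listed at 0.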

Other observations

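Haemoglobin and other erythroid markers summed to 3618, 4843 and 2092 FPKM in arrested, 3968, 2478 and 748 FPKM in competent and 937, 989 and 1501 FPKM in control libraries, an order of libraries that the mitosis and spindle genes did not follow. All 5 tested erythroid markers were higher in arrested than in competent and than in control libraries on average, with a median log2 difference of 0.77 against competent and 1.59 against control. Against control, 4 of them (Hba-a1, Hba-a2, Hbb-b1 and Hbb-b2, near-identical copies in pairs) had an unadjusted p under 0.05 by limma, against 2.08% of all genes higher. All 5 had arrested libraries all above controls, against 3.49% of all genes. Against competent none had such a p, and no erythroid marker passed the adjusted p in either comparison. Macrophage markers summed to 354, 397 and 224 FPKM in arrested, 277, 276 and 334 FPKM in competent and 382, 276 and 562 FPKM in control libraries. Endothelium markers summed to 43.3, 121 and 107 FPKM in arrested, 58.0, 84.1 and 70.6 FPKM in competent and 83.9, 79.6 and 89.6 FPKM in control libraries.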
